A study of Mus musculus with 10 samples.

Results

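The genes of the proteasome were examined as a family, chosen by symbol: every gene whose name begins with Psm, a letter from a to g and a digit. The rule found 49 of the 13091 genes in the deposited tables, and used no measured value. One of them, *Psmc3ip*, encodes a protein of meiotic recombination that carries the name of a subunit it binds and is not part of the proteasome (mean normalized count 250.1, or 194 per kb). *Psmb11*, the subunit of the thymus, was the single protein-coding gene of the mouse annotation that fitted the rule and was not listed in the tables.

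The proteasome is the protease that destroys proteins marked with ubiquitin. Its core is a stack of rings of alpha and beta subunits, in which 3 of the beta subunits cut, and a regulatory particle on either end binds ubiquitin, unfolds the substrate and feeds it in. Blood cells and cells exposed to interferon can replace the cutting subunits by the immunoproteasome subunits *Psmb8*, *Psmb9* and *Psmb10*, which change the peptides that reach major histocompatibility complex (MHC) class I molecules.

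The RNA came from neutrophils grown in culture from HoxB8-immortalized progenitors of 129-SVEV mouse bone marrow, in which an estrogen-dependent HoxB8 holds the cells in the progenitor state until estrogen is withdrawn. Each line was 1 clone. The 10 libraries were 3 unstimulated *Vim*-/- (vimentin knockout, "Vimentin KD" in the labels), 3 *Vim*-/- after 1 hour with LPS at 25 ng/mL, 2 unstimulated *Vim*+/+ and 2 *Vim*+/+ after the same LPS treatment, and both genotypes carried the HoxB8 construct. The value analysed was the mean normalized count, which averages the authors' DESeq2-normalized counts over all libraries.

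Since 6 of the 10 libraries were *Vim*-/- and 4 *Vim*+/+, the mean holds both genotypes and both treatments and does not separate them. The tables' other columns are the authors' own comparisons of genotype and of LPS, and those were not used here. What follows is therefore a description of how strongly each proteasome gene was expressed across the whole experiment. No value per library was at hand and library depths are unknown, so the levels carry no replicate error and no test was made. To set one gene beside another, each mean was divided by the length of the gene's principal transcript in GENCODE M21 and is given per kb. The mean over libraries was identical in the 4 tables for all 13091 genes.

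All 15 neutrophil markers checked were listed, between 11373 for *Ly6g* and 1290830 for *S100a9* (mean normalized counts). The 3 erythroid markers, 3 of the 4 T cell markers and 2 of the 3 B cell markers were not listed, and *Cd3d* stood at 250.3 and *Cd79a* at 83.8. Of the progenitor markers, *Cd34* was listed at 2564 and *Kit* at 1075, and of the 5 macrophage markers *Adgre1* at 10073 and *Csf1r* at 3269. All 5 eosinophil and mast cell markers were listed, from 593 for *Ms4a2* to 142776 for *Epx* and 268319 for *Prg2*. Their sum was 442583, against 4786760 for the 15 neutrophil markers, and their median 26296 against 114603. *Prg2* stood above the neutrophil markers *Itgam* at 114603 and *Mmp9* at 153228. In bulk RNA, fewer cells of a type and less RNA per cell cannot be told apart, and the part of such cells in the proteasome levels was not tested.

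Proteasome genes were among the better expressed genes of these cells. Their mean normalized counts ran from 112 for *Psma8* to 15682 for *Psmd2*, with a median of 3790 against 907 over all genes. The median member stood at percentile 79.1 of all listed genes, 41 of the 49 lay above the median gene, and 40 reached 1000. Per kb the median was 2258, against 348 for the 12046 genes that could be given a length, and 44 members lay above the median gene. Together the family held 0.354% of the summed mean normalized counts.

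**Figure D1:**
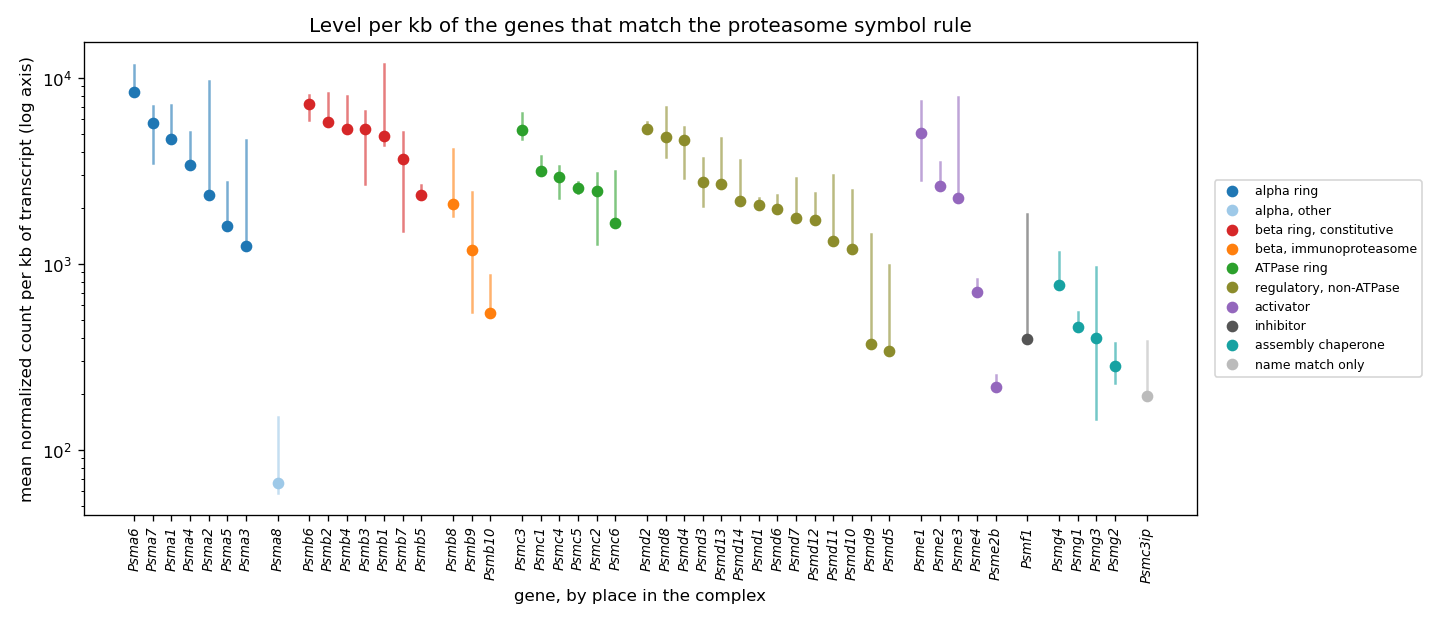
Mean normalized count per kb of each gene matching the rule (points, log axis), ordered by place in the complex. Vertical lines run from the lowest to the highest value when the principal transcript, the longest transcript or the coding length is used. By the principal transcript *Psma6* stood highest at 8363 per kb and *Psma8* lowest at 66.1. By the coding length *Psmb1* stood highest, at 11900.

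The alpha ring forms the gate of the core particle. *Psma6* was the highest of the whole family per kb, at 8363, though with the coding length *Psmb1*, at 11900, stood just above its 11808. In the ring *Psma7* followed at 5753 per kb, *Psma1* at 4689 and *Psma4* at 3419. *Psma2* at 2335, *Psma5* at 1605 and *Psma3* at 1248 stood lower, so the ring spanned 6.70-fold. *Psma2* and *Psma3* carry long annotated transcripts, of 2911 and 2846 bases, of which 702 and 765 are coding. Per kb of coding sequence alone *Psma2* stood at 9681, the third highest of the family, and *Psma3* at 4641. The low place of *Psma2* thus depends on its annotated untranslated sequence, whereas *Psma5* was the lowest of the ring on the coding scale, at 2751. *Psma5* has 2 near-identical copies elsewhere, the longer match over 76.8% of its transcript, and *Psma3* has 4, so both levels are uncertain.

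*Psma8* encodes the alpha subunit of the testis proteasome, which takes the place of the *Psma7* product there. Its mean normalized count was 112, and per kb it stood at 66.1, 87.1-fold under *Psma7*. The ratio was 59.6 with the longest transcripts and 47.4 on the coding scale, and *Psma8* was last among the 49 genes with all 3 lengths.

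The constitutive beta ring holds the proteolytic sites. Per kb *Psmb6* stood at 7216, *Psmb2* at 5823, *Psmb4* at 5334, *Psmb3* at 5324, *Psmb1* at 4874, *Psmb7* at 3678 and *Psmb5* at 2333, a span of 3.09-fold against the 6.70-fold of the alpha ring. On the coding scale the spans were 4.49-fold and 4.29-fold. The median was 5324 per kb for the beta ring and 3419 for the alpha ring, a ratio of 1.56, which was 1.13 on the coding scale and 0.951, with the order turned, without scaling by length. Among the constitutive cutting subunits, *Psmb6* (caspase-like) stood highest, *Psmb7* (trypsin-like) between and *Psmb5* (chymotrypsin-like) lowest, and this order was the same on the coding scale, at 8065, 5134 and 2648. With the longest transcripts *Psmb7*, at 1497, came under *Psmb5*, at 2333. Of these cutting subunits only *Psmb5* has a near-identical copy elsewhere, over 88.5% of its transcript, so its level and place are uncertain.

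Each of these subunits enters the core in equal number, and over the 14 ring genes the SD of the log2 level per kb was 0.82. Of the 14, 10 lay within 2-fold of their median. These 14 leave out *Psma8* and the immunoproteasome genes. Over all 49 genes found by symbol the SD was 1.59, between the 1.66 of the 82 cytosolic and the 1.38 of the 77 mitochondrial ribosomal protein genes, which were found by symbol as well. Over all genes the SD was 2.95. Without *Psmc3ip*, *Psma8* and *Psme2b*, the lowest of the family per kb, left out after seeing the data, the family's SD was 1.31. The ribosomal lists kept their own lowest genes (cytosolic minimum 147 per kb), so that value cannot be set against theirs. These are spreads over genes, not over replicates, and their difference was not tested.

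The immunoproteasome subunits were all expressed, and stood in the order *Psmb8*, *Psmb9*, *Psmb10*. *Psmb8*, which replaces *Psmb5*, had a mean normalized count of 3436, or 2111 per kb. *Psmb9*, which replaces *Psmb6*, had 1594, or 1179 per kb, and *Psmb10*, which replaces *Psmb7*, had 711, or 542 per kb. The order of the 3 was the same on the coding scale, at 4150, 2427 and 868, and with the longest transcripts, at 1802, 553 and 542.

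Against their constitutive counterparts, *Psmb9* and *Psmb10* stood several-fold lower, and *Psmb8* stood near its own. *Psmb9* was 6.12-fold lower than *Psmb6* per kb and *Psmb10* 6.78-fold lower than *Psmb7*. Both stayed lower with the longest transcript and with the coding length, by log2 ratios of -3.43 and -1.73 for *Psmb9* and of -1.47 and -2.56 for *Psmb10*. *Psmb8* and *Psmb5* were near each other at 2111 and 2333 per kb, a log2 ratio of -0.14, but the order turned with the coding length, where the log2 ratio was 0.65. The level of *Psmb5* in this pair is uncertain, since a copy elsewhere matches 88.5% of its transcript at 98.9% identity. Of each pair's summed level per kb, *Psmb8* made up 47.5%, *Psmb9* 14.0% and *Psmb10* 12.8%. On the coding scale the shares were 61.1%, 23.1% and 14.5%, and with the longest transcripts 43.6%, 8.49% and 26.6%, so *Psmb9* and *Psmb10* changed order. These are shares of transcript level and not of assembled particles.

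**Figure D2:**
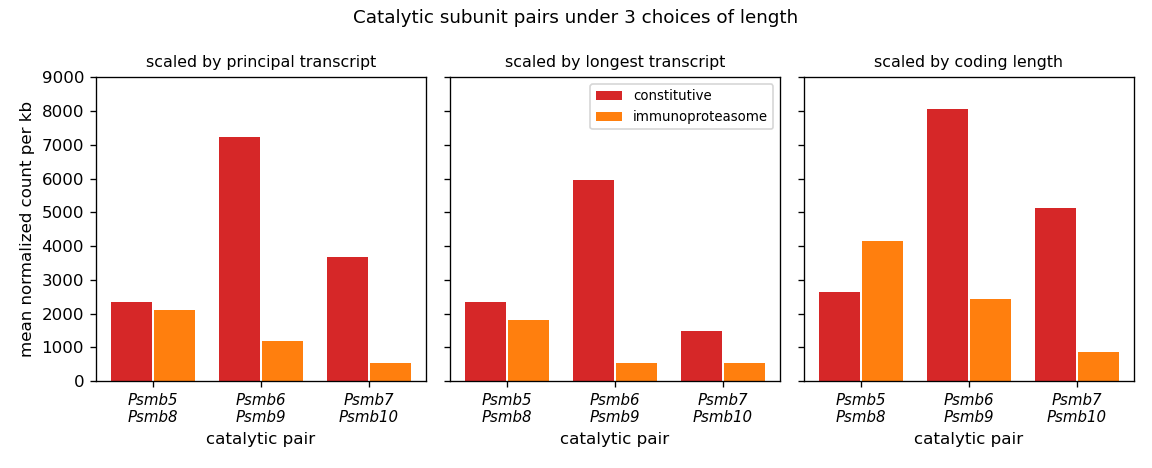
Mean normalized count per kb of the constitutive (red) and immunoproteasome (orange) subunit of each catalytic pair, with the mean scaled by the principal transcript, the longest transcript or the coding length. *Psmb6* and *Psmb7* stood above *Psmb9* and *Psmb10* in all 3 panels, while *Psmb5* and *Psmb8* changed order between the first panel (2333 and 2111) and the third (2648 and 4150).

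*Psmb8* and *Psmb9* are neighbours in the MHC region of chromosome 17, where *Psmb9* runs on the minus strand from 34181987 to 34187764 and *Psmb8* on the plus strand from 34197721 to 34201454 (GRCm38, the assembly of mm10), 9956 bases apart. *Psmb10* lies on chromosome 8. *Psmb9* shares 212 exon bases, 15.7% of its transcript, with *Tap1* on the other strand, which encodes a peptide transporter of the same antigen pathway and had a mean normalized count of 2773. *Psmb7* shares 405 bases (34.9%) with *Nek6* at 4672, *Psmd13* 342 (17.2%) with *Sirt3* at 392 and *Psmc3ip* 385 (29.8%) with *Mlx* at 2725. The use of strand in counting is not given in the sources used here, so reads from those stretches cannot be told apart. The members nearest to *Psmb8* in log2 level per kb were *Psmd1* (difference -0.02), *Psmd14* (0.05) and *Psme3* (0.10), over the 1 pooled mean available.

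The regulatory particle stands on a ring of ATPases that unfold the substrate. The 6 ATPase genes ran from *Psmc3* at 5229 per kb through *Psmc1* at 3166, *Psmc4* at 2941, *Psmc5* at 2546 and *Psmc2* at 2471 to *Psmc6* at 1656. The span was 3.16-fold, and the SD of the log2 level was 0.54 against 0.53 for the beta ring. On the coding scale the span was 2.34-fold and the SD 0.44 against 0.69. The alpha ring's median was 1.25-fold that of the ATPase ring per kb of the principal transcript, but 2.16-fold on the coding scale and 1.71-fold without the members that share exon bases with another gene.

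Among the 14 Psmd genes, *Psmd2*, a scaffold of the particle that also docks ubiquitin-like domains, had the highest mean normalized count of the family, at 15682. Its transcript is long, and per kb it stood seventh, at 5296. *Psmd8* followed at 4815 and the ubiquitin receptor *Psmd4* at 4629. *Psmd3* stood at 2752, *Psmd13* at 2700, the deubiquitinase *Psmd14* at 2188, the other large scaffold *Psmd1* at 2077, *Psmd6* at 1972, *Psmd7*, which pairs with *Psmd14*, at 1769, *Psmd12* at 1728 and *Psmd11* at 1331. The scaffold genes *Psmd1* and *Psmd2* thus differed 2.55-fold per kb and 2.55-fold on the coding scale.

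The lowest Psmd genes were *Psmd10* at 1202 per kb, *Psmd9* at 371 and *Psmd5* at 340. All 3 encode chaperones that help to build the ATPase ring and leave before the particle is finished. The 14 Psmd genes spanned 15.6-fold per kb and 7.08-fold on the coding scale, and the other 11 spanned 3.98-fold and 3.10-fold. On the coding scale *Psmd10* stood at 2481, above *Psmd1* at 2261, so its place depends on the length used, while *Psmd9* at 1447 and *Psmd5* at 988 remained the lowest of the Psmd genes.

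The assembly chaperones of the core particle also stood low within the family. *Psmg4* stood at 769 per kb, *Psmg1* at 458, *Psmg3* at 397 and *Psmg2* at 282, and their mean normalized counts, from 298 to 479, were all under the median gene. Per kb 3 of the 4 were above the median gene of 348, and *Psmg2* was below it. *Pomp*, the chaperone that closes the core and is then its first substrate, does not match the rule and had 3323, or 2104 per kb. Of the members, 31 encode parts of the constitutive finished particle, namely both rings, the ATPases and the 11 Psmd genes that are not chaperones. Subunits whose symbols do not match the rule are left out. The median of the 31 was 2941 per kb, and 27 of them lay within 2-fold of it. All 31 were above the median gene by mean normalized count.

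Activators dock on the core in place of the regulatory particle. *Psme1* and *Psme2* encode the interferon-inducible activator of the cytosol and lie tail to tail 5911 bases apart on chromosome 14, *Psme1* from 55578123 to 55581529 and *Psme2* from 55587441 to 55591113. *Psme1* stood at 5059 per kb, ninth of the family, and *Psme2* at 2618, a ratio of 1.93. With the longest transcript *Psme1* came to 2832, close to *Psme2* at 2618, and on the coding scale they stood at 7531 and 3512. *Psme3*, the nuclear activator, was at 2258 per kb (7895 on the coding scale, above *Psme1*), and *Psme4*, a single large protein that caps the core, at 706. The inhibitor *Psmf1* was at 396.

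*Psme2b* is a single-exon copy of *Psme2*, on chromosome 11. The transcripts are 99.4% identical over 794 aligned bases, so the 181 mean normalized counts assigned to *Psme2b* and the 2518 of *Psme2* may include reads of the other, and both are uncertain. In all 10 members had a stretch of at least 150 bases with at least 95% identity to a transcript of another gene elsewhere. Besides this pair, the only such copy listed in the tables was *A730017L22Rik* at 67.3, which matched 52.7% of *Psmd11* in the opposite orientation. The longest stretch, 2726 bases or 92.1% of the transcript, was between *Psmd2* and *Gm5422*, which was not listed. Copies that were not listed also matched *Psmb5* over 88.5% of its transcript, *Psmc1* over 82.1% and *Psmb3* over 80.7%. For *Psma5*, *Psma4* and *Psma3* the longest matches covered 76.8%, 67.2% and 27.1%. How reads that fit a gene and its copy were counted is not given, so the levels of these genes are uncertain too.

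Compared with other large complexes, the family stood between the ribosomes of the cytosol and of the mitochondrion. The median level per kb was 29220 for cytosolic ribosomal protein genes, 2258 for proteasome genes and 679 for mitochondrial ribosomal protein genes. The medians of mean normalized counts, not divided by length, were in the same order, at 24756, 3790 and 1109.

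**Figure D3:**
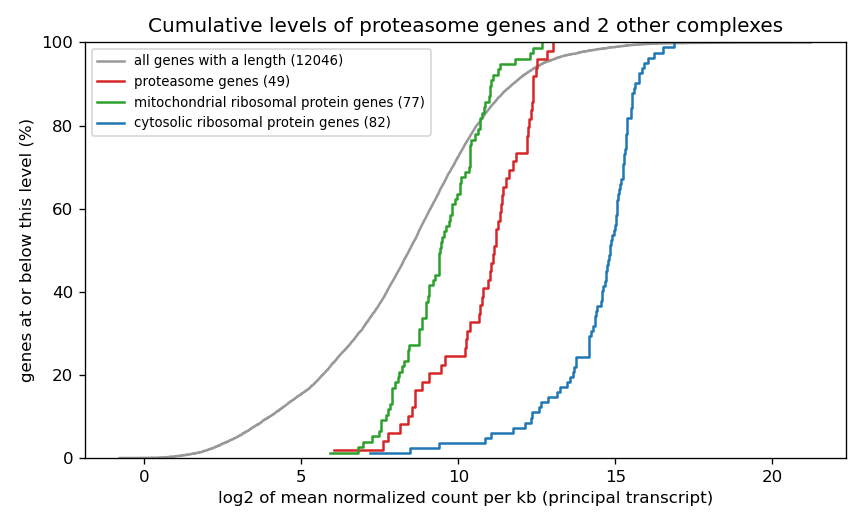
Share of genes at or below each log2 level per kb, for the 49 proteasome genes, 82 cytosolic and 77 mitochondrial ribosomal protein genes and the 12046 genes with a length. The proteasome curve crosses 50% at 11.14, between the mitochondrial ribosomal curve at 9.41 and the cytosolic ribosomal curve at 14.83. Its lower tail holds the Psmg chaperones, *Psme4*, *Psmb10*, *Psmf1*, *Psmd9*, *Psmd5*, *Psme2b*, *Psmc3ip* and *Psma8*.

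The other genes of the ubiquitin and antigen pathway were taken from a list of 32, of which 28 were matched by symbol (not *Sem1*, *Ecpas*, *Paaf1* and *Ufd1*). Of the 28, 27 had a mean normalized count above the median gene, with *Uba6*, the second ubiquitin-activating enzyme, below it at 532. Per kb 24 of the 28 were above the median gene, since *Ddi2*, *Erap1* and *Ubqln2* were under it too. The ubiquitin gene *Ubb* stood at 35737 per kb and *Rps27a*, which encodes ubiquitin fused to a ribosomal protein, at 41493, both above every proteasome gene.

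Other parts and partners of the particle differed widely in level per kb. The receptor *Adrm1* was at 3265 per kb and the deubiquitinase it holds, *Uchl5*, at 1836, whereas *Usp14*, the other associated deubiquitinase, was at 359. *Vcp*, the segregase that extracts substrates, reached 6424 and the ubiquitin-activating enzyme *Uba1* 3646. *Nfe2l1*, the transcription factor that raises proteasome genes when the protease is blocked, was at 2211 per kb, its relative *Nfe2l2* at 4444, and *Ddi2*, the protease that activates the *Nfe2l1* product, at 202. On the antigen side, *B2m* reached 47479, *Tapbp* 4259, *Tap2* 1699, *Tap1* 939 and the peptide trimmer *Erap1* 209 per kb. Only the length of the principal transcript was used for this list. *Usp14*, *Ddi2* and *Erap1* have transcripts of 4726, 9553 and 5644 bases. Their mean normalized counts, 1698, 1927 and 1179, were above the median gene.

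Promoter sequence was examined as a feature the rule had not used. RefSeq windows on GRCm38.p6, from 250 bases before to 50 after a start site, were held for 41 of the 49 members and for 9778 of all listed genes. Those for *Psma8*, *Psmb1*, *Psmb2*, *Psmb7*, *Psmc3*, *Psmd3*, *Psmd7* and *Psmg2* were not matched. Motifs were searched as exact letters on both strands, and no 2 matches of different motifs overlapped in the members. The core of the antioxidant response element (TGACNNNGC), to which *Nfe2l1* and *Nfe2l2* products bind, was in 6 of 41 member windows (14.6%) and in 15.0% of all windows. The CCAAT box was in 31.7% and 38.5%. The ETS site CCGGAAG was in 15 of 41 (36.6%) against 18.7% of all windows. *Psmc3ip*, which is not part of the proteasome, is among these 15 and also holds a CCAAT box. The interferon-stimulated response element core (2 GAAA repeats with 2 bases between them) was in 5 of 41 (12.2%) against 3.05%. Those 5 were *Psmb3*, *Psmd4*, *Psmd9*, *Psmg4* and *Psme1*, and none of the 3 immunoproteasome windows held that core, of which those of *Psmb8* and *Psmb9* lie 405 and 434 bases from the start of the principal transcript. The palindrome of the interferon-gamma-activated site (TTCNNNGAA) was in 3 of 41 (7.32%) against 7.02%, namely *Psmb8*, *Psmd2* and *Psmg1*. These shares are descriptions, and a match is not a binding site.

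The windows printed here are those of the constitutive cutting subunits with an antioxidant core, of the activator gene and the immunoproteasome gene with an interferon motif, and of a scaffold and a Psmd gene with an ETS site. Each is read on the strand of its gene, and capitals mark the motif.
*Psmb5*, antioxidant core, chr14:54618024-54618052, minus strand: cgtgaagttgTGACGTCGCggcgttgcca
*Psmb6*, antioxidant core, chr11:70525338-70525366, plus strand: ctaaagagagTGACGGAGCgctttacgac
*Psme1*, interferon-stimulated core, chr14:55578493-55578522, plus strand: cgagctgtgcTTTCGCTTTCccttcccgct
*Psmb8*, interferon-gamma-activated palindrome, chr17:34198088-34198116, plus strand: tcctccgctgTTCCCAGAAgatgcccccc
*Psmd2*, ETS site, chr16:20651616-20651642, plus strand: ccgcagggcgCTTCCGGtctggaggac
*Psmd13*, ETS site, chr7:140882378-140882404, plus strand: gcccgcggtgCCGGAAGtgagcgagca

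The motif centres lay 43 bases before the start site in *Psmb5*, 5 before it in *Psmb6*, 93 before it in *Psmb8*, 23 before it in *Psmd2*, 3 before it in *Psmd13* and 13 after it in *Psme1*. The *Psmd13* window likewise belongs to a RefSeq start 426 bases from the start of the principal transcript used for length, and the *Psme1* window to one 134 bases from it. In *Psme1* and *Psmd2* the motif reads on the opposite strand. Genes with an antioxidant core stood across the range of levels, from *Psmb6* at 7216 per kb to *Psmd9* at 371.

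By position the family was scattered. Its 49 genes lay on 16 chromosomes, and the 2 neighbouring pairs already named, *Psmb8* with *Psmb9* and *Psme1* with *Psme2*, were the only members less than 100000 bases apart. A start site of another listed gene on the other strand, pointing away from it, at most 1000 bases apart and with the genes overlapping by at most 200 bases, was found for 7 members (14.3%) and for 14.2% of all placed genes. The partners were *Mrpl32* for *Psma2*, *Ss18l1* for *Psma7*, *Dnajc2* for *Psmc2*, *Ftsj3* for *Psmc5*, *Atg4a* for *Psmd10*, *Rnf31* for *Psme2* and *Cep76* for *Psmg2*. Between *Psmc2* and *Dnajc2* 32 bases separated the starts.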

How the data were processed

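RNA was sequenced from 10 libraries of 4 groups. Per the labels and methods, the authors used Cutadapt 4.4 for trimming and STAR 2.7.10b for alignment to mm10 and quantification, estimated covariates with RUVSeq and normalized the counts with DESeq2 1.26.0. The gene annotation is not given in the sources used here. The deposited signal used was the mean normalized count over all libraries, identical in the 4 tables. The deposited tables also hold the authors' fold changes, standard errors, Wald statistics, p-values and adjusted p-values for genotype and LPS. Those were not used, so no test was made, no library depth is known, and no interval can be given.

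Levels were divided by the length of the principal (APPRIS) transcript of GENCODE M21 (GRCm38). Of 13091 genes, 12046 (92.0%) matched by symbol. Python 3.11.15, pandas 2.3.3 and blastn 2.17.0 were used. The percentile ranking and the motif search were checked on simulated data. Length scaling, exon overlaps and the search for copies were not. The text gives all members, the catalytic subunits, activators and extremes of each subgroup in full. Some genes of the pathway list are not reported here. Members and lists were chosen with earlier results of these data known. A replicated count model had been planned only for values per library. Alternatives were the longest transcript, the coding length, no scaling by length, a minimum of 100, and members that share exon bases left out.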

Additional observations from a re-analysis of the deposited data

How the results depend on the processing

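No paired analysis was possible because the tables hold 1 mean over all libraries, and for the same reason no replicate could be left out. With no replicate spread, any change of a value is given here. The median level per kb of all members, 2258 as reported, was 2043 with the longest transcript, 3377 with the coding length, 3790 unscaled, 2296 without the 13 members that share exon bases with another gene, and 2334 without *Psmc3ip*, *Psma8* and *Psme2b*, a setting chosen after seeing the data. The log2 ratio of *Psmb8* to *Psmb5* was -0.37 with the longest transcript but turned positive with the coding length (0.65) and unscaled (0.71), since *Psmb8* has the longer untranslated sequence. For *Psmb9* to *Psmb6* the 3 settings gave -3.43, -1.73 and -1.85, and for *Psmb10* to *Psmb7* -1.47, -2.56 and -2.59.

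Median log2 levels of subgroups are given in the order longest transcript, coding length, unscaled, and without members that share exon bases, leaving out values equal to the reported one. They were 12.79, 12.36 and 12.20 for the alpha ring from the coding length on, 12.09, 12.96, 12.29 and 12.38 for the constitutive beta ring, 9.11, 11.24, 10.64 and 9.08 for the immunoproteasome, 11.18, 11.68 and 12.08 for the ATPases, 10.97, 11.53, 11.80 and 10.79 for the Psmd genes, 11.78 and 12.16 for the activators with the coding length and unscaled, and 8.34, 9.51, 8.60 and 8.84 for the Psmg chaperones. Leaving out members that share exon bases kept *Psmb10* alone of the 3 immunoproteasome genes. The immunoproteasome and the chaperones had the lowest medians in each setting, while the alpha and beta rings changed order when unscaled. The SD over the 14 ring genes was 0.83, 0.67, 0.64 and 0.82. The median percentile was 73.4 among the 10321 genes with a mean normalized count of at least 100, and 79.7 without members that share exon bases.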
